A study of Mus musculus with 6 samples.

Results

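The 10 genes described here encode chaperones and proteases that keep proteins folded, or remove them, inside mitochondria: Hspd1, Hspe1, Hspa9, Trap1, Lonp1, Clpp, Clpx, Yme1l1, Oma1 and Phb2. They were taken by symbol from a list, not by their values, and all 10 were found among the 52636 genes of the deposited table. Total RNA of mouse optic nerve was depleted of ribosomal RNA and sequenced in 3 hND6 and 3 mCherry libraries. The hND6 label stands for human ND6 in a mutant form; ND6 is a subunit of respiratory complex I, and its gene normally lies in mitochondrial DNA. The mCherry label is the name of a red fluorescent protein. The labels set the same words on treatment, lentivirus carrying the mutant gene given into the eye, beside both groups, and give neither the strain nor the age of the mice, nor whether each library was a separate animal. P-values therefore measure only how these libraries vary, and that variation may be technical. The human gene itself was not analysed here, so no value of it checks the labels.

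Most mitochondrial proteins are made in the cytosol and threaded into the organelle unfolded. In the matrix, Hspa9 (mortalin) helps pull them in, the chaperonin barrel of Hspd1 with its lid Hspe1 folds them, and Trap1, a relative of the cytosolic Hsp90 chaperones, acts on a further set of clients. Lonp1 and the ClpXP pair, in which the ring of Clpx unfolds substrates and feeds them to the peptidase Clpp, degrade damaged or unassembled proteins. In the inner membrane, Yme1l1 and Oma1 both cleave the fusion protein Opa1, and Phb2 forms ring-shaped scaffolds with its partner Phb. A rise of such transcripts is one known mark of the mitochondrial unfolded protein response, a nuclear response to misfolded proteins in mitochondria, so the comparison asks whether these transcripts differed between the groups.

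The positions of the genes on the mouse build mm10 (GRCm38), as the deposited gene table lists them, bear on the results. Hspd1 (chr1:55077835-55088024, minus strand) and Hspe1 (chr1:55088132-55091307, plus strand) lie head to head with 107 bases between them. GENCODE M21 ends Hspd1 at 55088243, past the listed start of Hspe1, so reads at the shared edge could be placed with either gene unless strand was used in counting, a setting not given in the sources used here. Clpp (chr17:56990264-56996371, plus) and Lonp1 (chr17:56614301-56626903, minus) lie 363360 bases apart. Phb2 is at chr6:124712336-124716950 (plus) and Clpx at chr9:65294260-65330657 (plus). Trap1 is at chr16:4039971-4077827 (minus). Yme1l1 is at chr2:23156369-23199260 (plus) and Oma1 at chr4:103313812-103366443 (plus).

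Promoter sequence, 250 bases before and 50 after a gene start, came from RefSeq on GRCm38.p6 and was matched by symbol for 9 of the 10 genes, in 10 windows. The windows of Hspe1, which also covers the listed start of Hspd1, Clpp and Phb2 are shown because these genes or their partner lay higher in hND6, and that of Clpx because it partners Clpp. Capitals mark matches, on either strand, to a heat shock element of alternating units (TTC, any 2 bases, GAA, any 2 bases, TTC) or to an ETS site (CCGGAAG). They run 5′ to 3′ on the gene's own strand, over chr1:55087898-55088197 for Hspe1 (plus), chr17:56990014-56990313 for Clpp (plus), chr6:124712039-124712338 for Phb2 (plus) and chr9:65294010-65294309 for Clpx (plus).
Hspe1: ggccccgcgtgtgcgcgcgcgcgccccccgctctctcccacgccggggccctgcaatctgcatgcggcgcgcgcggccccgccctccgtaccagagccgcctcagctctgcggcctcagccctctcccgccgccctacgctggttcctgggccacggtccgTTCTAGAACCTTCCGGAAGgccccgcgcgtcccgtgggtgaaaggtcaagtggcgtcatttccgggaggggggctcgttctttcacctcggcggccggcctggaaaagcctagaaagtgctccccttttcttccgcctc
Clpp: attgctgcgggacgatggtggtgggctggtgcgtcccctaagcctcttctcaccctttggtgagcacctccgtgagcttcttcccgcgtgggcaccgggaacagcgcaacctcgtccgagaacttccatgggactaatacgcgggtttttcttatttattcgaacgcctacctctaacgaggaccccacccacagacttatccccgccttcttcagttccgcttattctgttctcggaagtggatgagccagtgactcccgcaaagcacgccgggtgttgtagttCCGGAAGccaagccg
Phb2: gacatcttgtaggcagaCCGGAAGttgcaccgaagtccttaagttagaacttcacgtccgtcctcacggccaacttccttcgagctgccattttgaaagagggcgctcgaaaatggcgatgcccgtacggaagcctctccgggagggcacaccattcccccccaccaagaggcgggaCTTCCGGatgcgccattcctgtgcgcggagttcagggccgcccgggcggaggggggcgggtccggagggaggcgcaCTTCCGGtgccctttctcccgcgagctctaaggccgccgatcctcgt
Clpx: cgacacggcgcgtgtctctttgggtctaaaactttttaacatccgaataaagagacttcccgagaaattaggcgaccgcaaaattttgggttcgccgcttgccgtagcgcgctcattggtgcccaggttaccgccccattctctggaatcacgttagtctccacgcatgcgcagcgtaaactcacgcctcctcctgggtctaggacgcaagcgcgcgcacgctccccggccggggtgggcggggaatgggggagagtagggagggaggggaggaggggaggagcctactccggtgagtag
The capital run of the Hspe1 window, between positions -89 and -71 from the RefSeq start, held a pair of overlapping heat shock element matches, and a pair of overlapping ETS matches lay across its end. The same run was read on the other strand in a window of Hspd1. The heat shock element was found in 0.603% of all 32851 promoter windows of this length, and among these genes in Hspd1 and Hspe1. The ETS site was in 8.86% of all windows and in those of 5 of the 9 genes, namely Hspd1, Hspe1, Clpp, Phb2 and Yme1l1. A CRE core (TGACGT, in 7.51% of all windows) was found in Lonp1 and Trap1, and an NRF-1 site (GCGC, any base, TGCGC, in 4.6%) in Oma1 and in the other window of Hspd1. The C/EBP-ATF composite element (TGATGNAA, in 3.97%) matched none of the 10 windows. These matches describe letters in these windows and say nothing of whether a factor binds there.

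None of the 10 genes passed the threshold of 0.05 on the adjusted p in limma, in either direction. Of all 16157 genes tested, 0.0433% passed as higher in hND6, 7 genes, while 0% passed as lower. When p was left unadjusted and taken under 0.05, 3 of the 10, Hspd1, Clpp and Phb2, lay higher, against 9.11% of all tested genes, and 0 of the 10 lay lower, against 6.05%. The same 3 genes were the ones whose hND6 libraries all stood above all mCherry libraries, against 12.6% of all tested genes, and none of the 10 separated the groups the other way, against 10.2%. The counts by unadjusted p depend on the scaling of the libraries. On the TPM scale, FPKM is rescaled to a constant sum per library. There 0 of the 10 had an unadjusted p under 0.05 as higher and 1, Clpx, as lower. Over all tested genes there were then 544 higher and 2185 lower, in place of 1472 higher and 978 lower. With median-of-ratios scaling the unadjusted limma p stayed under 0.05 for Hspd1 (0.026), Clpp (0.029) and Phb2 (0.033). It did so too with quantile normalisation (0.018, 0.016 and 0.030 in the same order). Overlap of the groups was judged only on FPKM as deposited. The tests used log2(FPKM + 0.5), and FPKM, fragments scaled by exon length and by reads per library, allows levels to be set beside each other between genes.

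**Figure D1:**
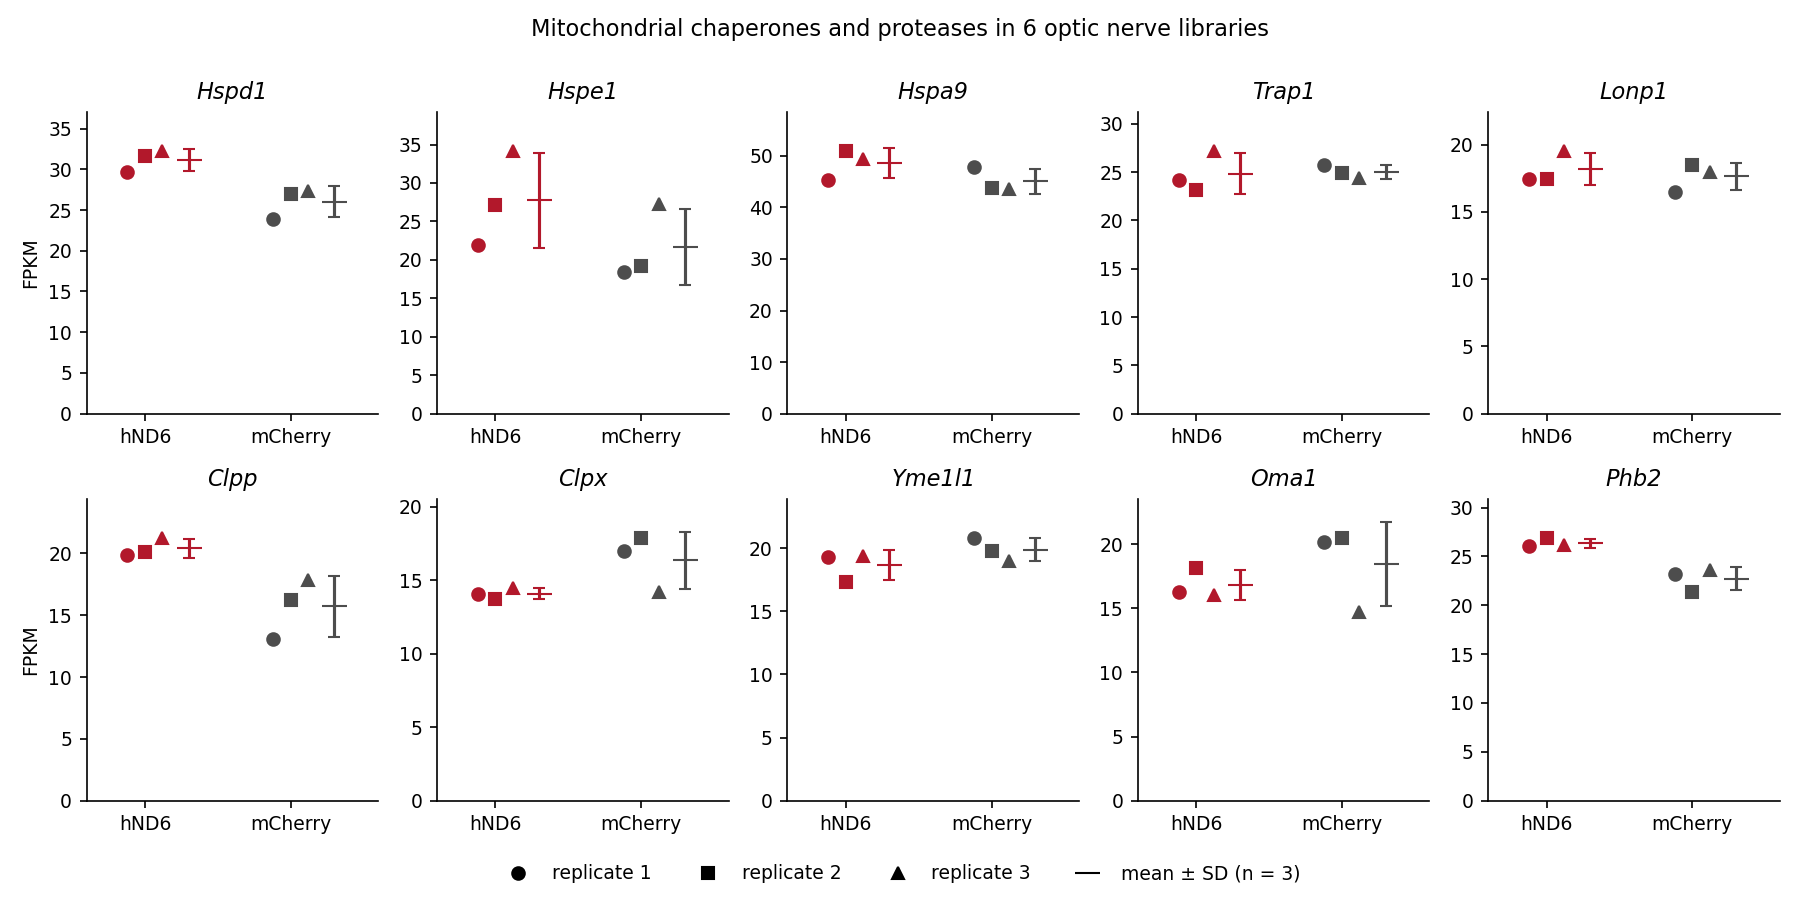
FPKM of each of the 10 genes in each library (points; shape gives the replicate), with hND6 on the left and mCherry on the right and bars for the mean ± SD (n = 3 each). All 3 hND6 libraries lie above all 3 mCherry libraries for Hspd1, Clpp and Phb2, and the groups overlap for the other 7 genes.

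By level, Hspa9 led in every library, from 43.6 to 51.0 FPKM over all 6. Hspd1 came next with a mean of 28.6 FPKM. Trap1, Hspe1 and Phb2 followed at means of 24.9, 24.7 and 24.5 FPKM, and their ranges overlapped, as did those of Hspd1 and Trap1. A step down led to Yme1l1, Clpp, Lonp1 and Oma1, at 19.3, 18.1, 17.9 and 17.6 FPKM, whose order varied between libraries. Clpx was lowest on average at 15.2 FPKM. The values rest on 415 to 4731 recovered reads per gene and library, the fewest for Hspe1.

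The chaperonin pair lay higher on average in hND6. Hspd1 stood at 29.7, 31.6 and 32.3 FPKM in hND6 libraries 1 to 3, against 23.9, 26.9 and 27.3 FPKM in mCherry libraries. The groups did not overlap, but the lowest hND6 library and the highest mCherry library lay close together. The log2 fold change was 0.26 ± 0.08 (SE; 95% interval 0.06 to 0.46; limma adjusted p = 0.256), and the means were 31.2 ± 1.34 FPKM for hND6 and 26.04 ± 1.86 FPKM for mCherry (SD, n = 3 each). Hspe1, its lid, stood at 21.9, 27.1 and 34.2 FPKM in hND6, against 18.5, 19.2 and 27.3 FPKM in mCherry. It varied most of the 10, 1.85-fold between its lowest and highest library, and its groups overlapped through mCherry 3. Its log2 fold change of 0.35 ± 0.21 was larger than that of Hspd1 but had a wider interval, -0.16 to 0.85 (adjusted p = 0.481).

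Copies of these genes in the genome bear on their counts. Hspd1 had 7 other GENCODE M21 transcribed genes at 90% identity or more over at least 100 bases, of which 6 had a row in the table and 4 had reads, 553 in all, against 11270 for Hspd1. The closest long copy, Hspd1-ps3, shares 99.0% of bases over 71.1% of the Hspd1 transcript, and had 77, 57 and 89 reads in hND6 and 87, 91 and 78 in mCherry libraries. Hspe1 had 5 such copies, of which the 4 with a row had no read. The closest, AC117239.2, had no row, and shares 99.0% of bases over 66.5% of the Hspe1 transcript. The treatment of reads that match both a gene and its copy was not given in the sources used here, so the levels of Hspd1 and Hspe1 are uncertain by what such reads would add.

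Hspa9 and Trap1 showed no difference beyond the spread between libraries. Hspa9 (chr18:34937414-34954357, minus strand), which works in import and folding, stood at 45.3, 51.0 and 49.4 FPKM in hND6, against 47.9, 43.8 and 43.6 FPKM in mCherry. Its groups overlapped, and the log2 fold change was 0.11 ± 0.08 (adjusted p = 0.585) and -0.04 on the TPM scale. Trap1 stood at 24.2, 23.2 and 27.2 FPKM in hND6, against 25.8, 24.9 and 24.4 FPKM in mCherry. The mCherry values lay within the hND6 range, and the log2 fold change was -0.01 ± 0.09, with a 95% interval of -0.22 to 0.19 (adjusted p = 0.958), an interval wide enough to hold a difference of the size seen for Lonp1 or Hspa9. The last 54 bases of Trap1 overlap Dnase1 on the opposite strand, which reached at most 0.045 FPKM.

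Among the matrix proteases, the subunits of ClpXP lay apart. Clpp, the peptidase, stood at 19.8, 20.1 and 21.2 FPKM in hND6, against 13.1, 16.2 and 17.9 FPKM in mCherry. All hND6 libraries lay above the mCherry libraries, which spread more widely. Its log2 fold change of 0.38 ± 0.12 was the largest of the 10 in this fit (95% interval 0.08 to 0.68; limma adjusted p = 0.263). Clpx, its unfoldase, stood at 14.1, 13.7 and 14.5 FPKM in hND6, against 17.03, 17.9 and 14.2 FPKM in mCherry. mCherry 3 lay among the hND6 values and the other mCherry libraries above them, and the log2 fold change was -0.20 ± 0.11 (interval -0.46 to 0.05, adjusted p = 0.41). Lonp1, which degrades oxidised and unassembled matrix proteins, stood at 17.5, 17.5 and 19.5 FPKM in hND6, against 16.5, 18.4 and 18.0 FPKM in mCherry. Its groups overlapped throughout, with a log2 fold change of 0.04 ± 0.09 (interval -0.17 to 0.25, adjusted p = 0.853) that was -0.10 on the TPM scale.

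The inner membrane proteases Yme1l1 and Oma1 lay slightly lower on average, and the prohibitin Phb2 higher. Yme1l1 stood at 19.3, 17.3 and 19.4 FPKM in hND6, against 20.8, 19.8 and 19.0 FPKM in mCherry, a log2 fold change of -0.09 ± 0.08 with overlapping groups (adjusted p = 0.65). Oma1, which is activated when the membrane potential is lost, stood at 16.3, 18.2 and 16.0 FPKM in hND6, against 20.2, 20.5 and 14.7 FPKM in mCherry. The lowest Oma1 value of all was mCherry 3, while the other mCherry libraries were the highest, and the log2 fold change was -0.12 ± 0.14 (adjusted p = 0.74). Phb2 stood at 26.1, 26.9 and 26.1 FPKM in hND6, against 23.2, 21.4 and 23.6 FPKM in mCherry. The groups did not overlap, the hND6 libraries lay close together, and the log2 fold change was 0.21 ± 0.07 (95% interval 0.04 to 0.39; limma adjusted p = 0.272). An antisense gene, Gm15884, overlaps 1378 bases of Phb2 and reached at most 0.188 FPKM.

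Ratios of partner genes within one library do not depend on how libraries are scaled, and 4 were compared. Clpp/Clpx was 1.41, 1.46 and 1.47 in hND6 libraries 1 to 3, against 0.766, 0.908 and 1.26 in mCherry libraries. Clpp thus exceeded Clpx per length in every hND6 library and in 1 mCherry library, and the groups did not overlap. The difference in log2 ratio was 0.60, from means of 0.53 ± 0.03 in hND6 and -0.06 ± 0.37 in mCherry (SD, n = 3 each; exact two-sided permutation p = 0.1, the smallest that 3 against 3 libraries allow; 0.4 adjusted over the 4 ratios). Clpp spans 6.1 kb and Clpx 36.4 kb, and the ratio does not remove a dependence on gene span. The difference was 0.44 without mCherry 1 and 0.80 without mCherry 3.

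Hspe1/Hspd1 was 0.737, 0.857 and 1.06 in hND6, against 0.773, 0.715 and 1.0 in mCherry, a difference of 0.09 in log2 ratio with overlapping groups (exact permutation p = 0.6 for n = 3 each). The libraries of a group differed more than the groups. Oma1/Yme1l1 (difference -0.03, exact permutation p = 1) and Phb2/Phb (difference 0.00, exact permutation p = 1) did not separate the groups. Phb2 was 2.54 to 2.96 times as high as Phb per length in hND6 and 2.14 to 3.66 times in mCherry.

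**Figure D2:**
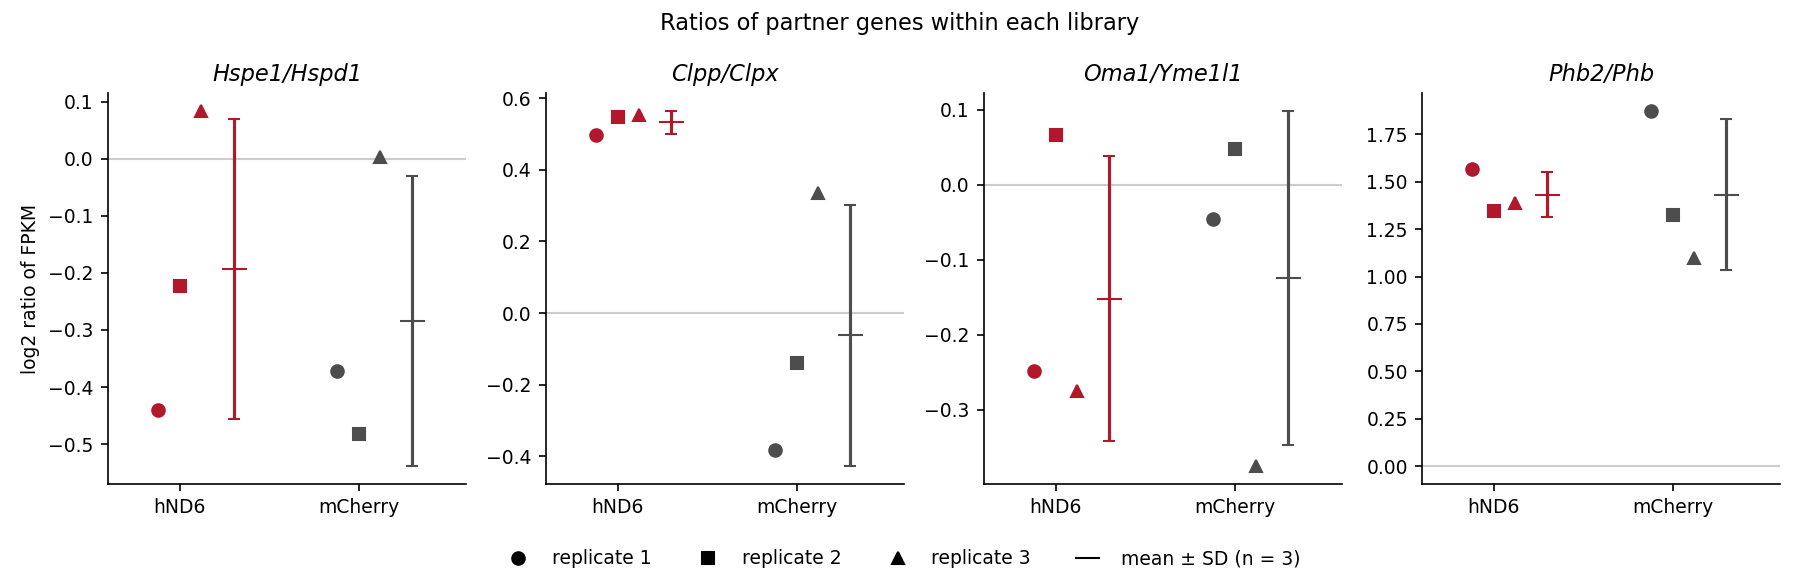
The log2 ratio of FPKM of 4 pairs of partner genes in each library (points; shape gives the replicate), hND6 left and mCherry right, with bars for the mean ± SD (n = 3 each); each panel has its own axis. Clpp/Clpx lies between 0.50 and 0.55 in hND6 and between -0.38 and 0.34 in mCherry, and the other 3 ratios overlap between groups.

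Taken as a group, the 10 genes summed to 234.1, 246.6 and 259.8 FPKM in hND6, against 226.8, 229.1 and 229.9 FPKM in mCherry. These sums did not overlap, but neither did total FPKM over all genes. The total was 417385 to 450685 in hND6 and 365375 to 411248 in mCherry libraries. As a share of FPKM over all genes the 10 made up 0.0566 ± 0.000955% in hND6 and 0.0581 ± 0.00347% in mCherry, and of protein-coding FPKM 0.0839 ± 0.00281% and 0.0837 ± 0.000343% (SD, n = 3 each). The difference in the sum was smaller than the spread once expressed as a share. The median log2 fold change of the 10 was 0.07, beside -0.01 for all tested genes. Of the 10, 6 had a higher mean in hND6, against 48.6% of all tested genes, and 4 a lower one, against 51.4%. On the TPM scale the median of all tested genes moved to -0.14 and that of the 10 to -0.07, with 4 higher and 6 lower. On that scale Hspd1 (0.11), Hspe1 (0.20), Clpp (0.24) and Phb2 (0.07) were above 0. Clpx (-0.34), Oma1 (-0.26) and Yme1l1 (-0.23) lay further below 0 than the median of all genes, and Trap1 (-0.155) lay close to that median. In bulk tissue, fewer cells of a type and less RNA per cell cannot be told apart.

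The fold changes of the 10 genes were ordered by the length of the gene on the chromosome. The 4 genes of the shortest span, Hspe1 (3.2 kb), Phb2 (4.6 kb), Clpp (6.1 kb) and Hspd1 (10.2 kb), had the 4 highest log2 fold changes. The 4 of the longest span, Clpx (36.4 kb), Trap1 (37.9 kb), Yme1l1 (42.9 kb) and Oma1 (52.6 kb), had the 4 lowest, and Lonp1 and Hspa9 lay between on both. Spearman's rho between span and log2 fold change was -0.86 over the 10 genes and -0.54 over 13678 tested protein-coding genes, as a description across genes that share the same 6 libraries. After the trend of log2 values with span was taken out of each library, the log2 fold change of Clpp was 0.23 ± 0.11 and that of Hspd1 0.17 ± 0.09. Those of Hspe1 and Phb2 became 0.10 ± 0.16 and 0.02 ± 0.08, and Clpx kept -0.16 ± 0.11. Spearman's rho was then -0.66 over the 10 genes and -0.02 over the protein-coding genes, so part of the order by span remained among the 10. The limma adjusted p of all 10 was then 0.667 or more, and whether the trend with span is technical was not tested.

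**Figure D3:**
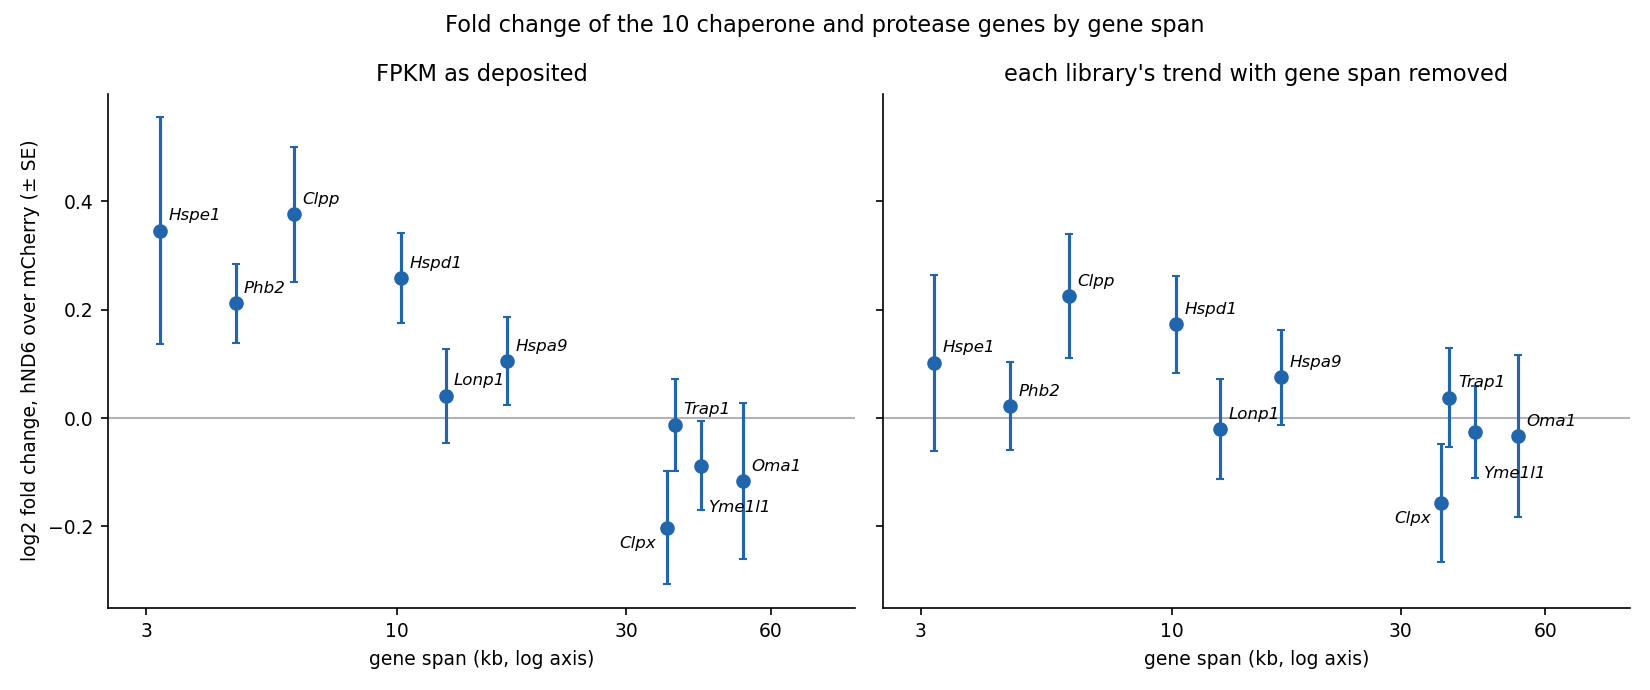
Log2 fold change of hND6 over mCherry (points, ± SE from limma, 3 libraries a group) against gene span in kb on a log axis for the 10 genes, from FPKM as deposited (left) and after removal of each library's trend with span (right). On the left the 4 shortest genes lie highest, at 0.21 to 0.38, and on the right all 10 lie between -0.16 and 0.23.

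Some libraries carried transcripts of other tissue. Summed over 9 forebrain neuron markers, hND6 1 reached 198 FPKM and mCherry 3 reached 616 FPKM, against 34.4 to 59.1 FPKM in the other hND6 and 27.2 to 40.7 FPKM in the other mCherry libraries. Photoreceptor markers summed to 205 FPKM in hND6 2 and to 6.59 FPKM or less elsewhere. The defining optic nerve glia were present throughout, with 8 oligodendrocyte markers at 6602 to 7661 FPKM in hND6 and 4629 to 6917 FPKM in mCherry, and 8 astrocyte markers at 2194 to 2585 FPKM in hND6 and 1595 to 2098 FPKM in mCherry. Microglia markers stood at 287 to 337 FPKM in hND6 and 197 to 297 FPKM in mCherry, and B and plasma cell markers at 147 to 415 FPKM in hND6 and 34.1 to 47.3 FPKM in mCherry. Of the B and plasma cell markers, 3 of 7 tested passed as higher. All 9 photoreceptor, 6 microglia, 5 erythroid and 7 meningeal markers had a higher mean in hND6, and none of them passed. All 7 tested B and plasma cell, 7 of 8 oligodendrocyte and 6 of 8 astrocyte markers also had a higher mean. Of forebrain neuron markers 1 of 9 did, against 48.6% of all tested genes. The erythroid sum was 1363 to 2602 FPKM in hND6 and 179 to 467 FPKM in mCherry, and that of meningeal sheath and fibroblast markers 401 to 422 FPKM in hND6 and 265 to 346 FPKM in mCherry. Skeletal muscle markers were low, at 3.01 to 3.84 FPKM in hND6 and 3.22 to 5.91 FPKM in mCherry. So were pigment epithelium markers, at 7.06 to 10.5 FPKM in hND6 and 5.44 to 13.8 FPKM in mCherry. Of these, Rpe65 reached 5.48 FPKM in mCherry 1 and 2.01 FPKM in hND6 2, against 0 to 0.564 FPKM elsewhere. Rlbp1 ran from 4.66 to 9.46 FPKM. Retinal ganglion cell markers summed to 28.4 to 36.4 FPKM in hND6, below the 38.0 to 47.5 FPKM of the mCherry libraries. Of these 6 markers 3 were tested, 1 of them with a higher mean in hND6, and 0 passed. No marker gene was at 0 in all libraries, and the part of these other cells in the values of the 10 genes was not tested.

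mCherry 3 was also the library in which several of the 10 genes stood nearest to hND6. Without it the log2 fold change of Hspe1 was 0.52, that of Clpp 0.47, that of Clpx -0.30 and that of Oma1 -0.27, and the smallest adjusted p among the 10 was 0.0975 for Clpp, in a comparison where 0.718% of all genes passed as higher and 0.0928% as lower. Without mCherry 3 and hND6 1, the libraries with the most neuron transcripts, Hspe1 was at 0.68 and Clpp at 0.49, and none of the 10 passed. Without mCherry 3 and hND6 2, which held the photoreceptor transcripts, the values were 0.53 and 0.48.

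**Figure D4:**
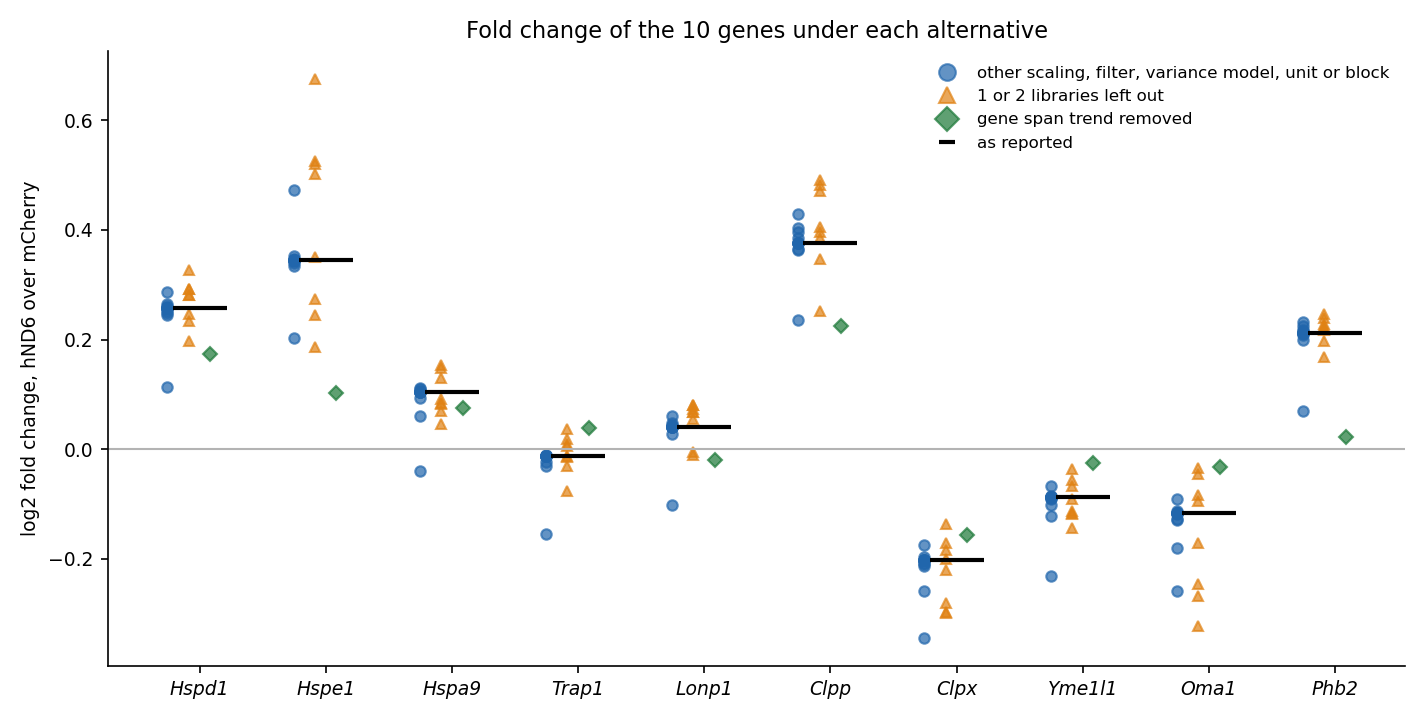
Log2 fold change of hND6 over mCherry for each of the 10 genes as reported (black bar) and under 21 alternatives (points), grouped by kind. Hspd1, Hspe1, Clpp and Phb2 stay above 0 and Clpx, Yme1l1 and Oma1 below 0 in each, while Hspa9, Trap1 and Lonp1 cross 0. Among the genes that do not cross 0, Hspe1, Phb2, Yme1l1 and Oma1 lie within their SE of 0 with the gene span trend removed.

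Other genes of mitochondrial protein quality control were read from lists. Of 15 further chaperones and folding factors all were tested, 7 lay higher and 8 lower (median -0.02), and 0 passed. On the TPM scale 3 lay higher and 12 lower, at a median of -0.16, beside -0.14 over all tested genes. With 1 library left out the median lay between -0.03 and 0.01, and with the span trend removed it was -0.02. The DnaJ-like zinc-binding partner Dnlz averaged 6.04 ± 0.628 FPKM for hND6, against 5.21 ± 0.434 FPKM for mCherry. For Grpel1, a nucleotide exchange factor of Hspa9, the log2 fold change was 0.22 ± 0.15 (adjusted p = 0.528). Atpaf2, an assembly factor of the ATP synthase, averaged 10.02 ± 0.797 FPKM for hND6, against 11.7 ± 0.446 FPKM for mCherry, without overlap (SD, n = 3 each; log2 fold change -0.22, adjusted p = 0.329), and Grpel2, the other exchange factor, had a log2 fold change of -0.15 ± 0.09 without overlap.

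Of 16 further proteases and processing peptidases 14 were tested, 4 lying higher and 10 lower (median -0.13), and 0 passed. Afg3l1 and Spg7, subunits of the protease that the prohibitin rings surround, are listed at 0 in all 6 libraries; how overlapping or repeated reads were counted was not given in the sources used here, so a listed 0 does not show that the gene was silent. Afg3l2, the subunit they pair with, stood at 16.9, 16.7 and 17.1 FPKM in hND6, against 21.2, 17.9 and 19.2 FPKM in mCherry. Its groups did not overlap, and the log2 fold change was -0.19 ± 0.09 (adjusted p = 0.362). Immp2l, a peptidase subunit of the inner membrane encoded by a gene of 931499 bp, had the smallest p of the list (log2 fold change -0.46 ± 0.07, adjusted p = 0.143). Lactb, a filament-forming protease, and Pmpcb, a subunit of the peptidase that removes import signals, had log2 fold changes of 0.22 ± 0.13 and 0.11 ± 0.07. Their genes span 20092 and 20012 bp, and that of Afg3l2 spans 44400 bp. On the TPM scale 1 of the 14 lay higher and 13 lower, and the list's median was -0.27, beside -0.14 over all tested genes. Without mCherry 1 the median was -0.03, with 6 higher and 8 lower, and with the span trend removed it was -0.04, with 3 higher and 11 lower.

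The partners and substrates of Phb2, Yme1l1 and Oma1 formed a list of 14 symbols, of which 12 were matched and tested. Of these 8 lay higher and 4 lower (median 0.10), and 0 passed. Stoml2, a membrane scaffold protein related to the prohibitins, stood at 11.5, 11.7 and 11.1 FPKM in hND6, against 6.1, 7.37 and 9.25 FPKM in mCherry, without overlap (log2 fold change 0.58 ± 0.15, adjusted p = 0.202). Pink1, a kinase that builds up on damaged mitochondria, stood at 109, 124 and 104 FPKM in hND6, against 87.9, 83.2 and 83.6 FPKM in mCherry, also without overlap (0.40 ± 0.09, adjusted p = 0.178). Chchd3 and Chchd6, subunits of the complex that shapes the cristae, had log2 fold changes of -0.24 ± 0.08 and -0.20 ± 0.16. Their genes span 268044 and 212502 bp, while Stoml2 and Pink1 span 4021 and 12896 bp. On the TPM scale 5 of the 12 lay higher, at a median of -0.05, beside -0.14 over all tested genes. The median was 0.05 without mCherry 1 and 0.16 without mCherry 3. With the span trend removed it was 0.13, with 11 of the 12 higher.

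Of 23 genes tested in the list of cytosolic chaperones, 18 lay higher and 5 lower (median 0.24), and 0 passed. That list includes the transcription factor Hsf1, which is also counted among the regulators below. On the TPM scale 15 lay higher, at a median of 0.10, beside -0.14 over all tested genes. With the span trend removed 17 lay higher, at a median of 0.15. In 11 the hND6 libraries all lay above the mCherry libraries, against 12.6% of all tested genes. Cryab, a small heat shock protein abundant in glia, stood at 293, 341 and 425 FPKM in hND6, against 214, 252 and 202 FPKM in mCherry (log2 fold change 0.65 ± 0.17, adjusted p = 0.199). Cct3, a subunit of the cytosolic chaperonin, had a log2 fold change of 0.26 ± 0.08. Hsph1, an exchange factor of the Hsp70 system that is induced by heat, lay the other way, with overlapping groups. It averaged 17.6 ± 3.52 FPKM for hND6 against 24.9 ± 3.96 FPKM for mCherry (SD, n = 3 each, log2 fold change -0.50 ± 0.17, limma adjusted p = 0.276). Dnaja1 had a log2 fold change of -0.15 ± 0.12. Cryab and Cct3 span 5312 and 24652 bp, and Hsph1 and Dnaja1 span 19795 and 14228 bp.

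Of 19 genes of the import channels and of mitochondrial mass 18 were tested, 15 of them higher and 3 lower (median 0.20), and 0 passed. On the TPM scale 11 lay higher, at a median of 0.07, beside -0.14 over all tested genes. With the span trend removed 14 lay higher, at a median of 0.15. Tomm5, a small subunit of the outer membrane channel, stood at 9.58, 11.7 and 10.8 FPKM in hND6, against 6.25, 5.84 and 7.64 FPKM in mCherry (log2 fold change 0.67 ± 0.13, adjusted p = 0.158). Tomm22, a receptor of the outer membrane channel, stood at 23.5, 25.4 and 26.8 FPKM in hND6, against 14.9, 15.3 and 21.5 FPKM in mCherry (0.55 ± 0.15, adjusted p = 0.207). Without mCherry 3 its log2 fold change was 0.72 ± 0.08 and it passed (adjusted p = 0.0453), the only gene of these lists to pass under any of the 21 alternatives. Timm9 and Timm23, of the inner membrane import path, had log2 fold changes of -0.30 ± 0.28 and -0.08 ± 0.10. Tomm5 and Tomm22 span 2827 and 2002 bp, and Timm9 and Timm23 span 13496 and 21737 bp.

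Of 12 regulators tied to the mitochondrial unfolded protein response 5 lay higher and 7 lower (median -0.01), and 0 passed. On the TPM scale 3 lay higher and 9 lower, at a median of -0.16, close to the -0.14 of all tested genes on that scale. Without mCherry 2 the split was 8 higher and 4 lower (median 0.04). With the span trend removed it was 5 higher and 7 lower (median -0.03). Atf5, a transcription factor of this response in mammalian cells, stood at 60.4, 67.0 and 72.6 FPKM in hND6, against 55.6, 46.1 and 41.1 FPKM in mCherry, without overlap (log2 fold change 0.49 ± 0.13, adjusted p = 0.207). Cebpb, a transcription factor of several stress responses, stood at 6.39, 7.40 and 10.6 FPKM in hND6, against 6.37, 4.59 and 4.21 FPKM in mCherry (0.63 ± 0.23, adjusted p = 0.284). The lowest hND6 and the highest mCherry value of Cebpb differed by almost nothing. Eif2ak4, a kinase of the integrated stress response, and Nrf1, a transcription factor of mitochondrial genes, had log2 fold changes of -0.24 ± 0.09 and -0.20 ± 0.14. Atf5 and Cebpb span 4403 and 1504 bp, and Eif2ak4 and Nrf1 span 86388 and 105471 bp.

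**Figure D5:**
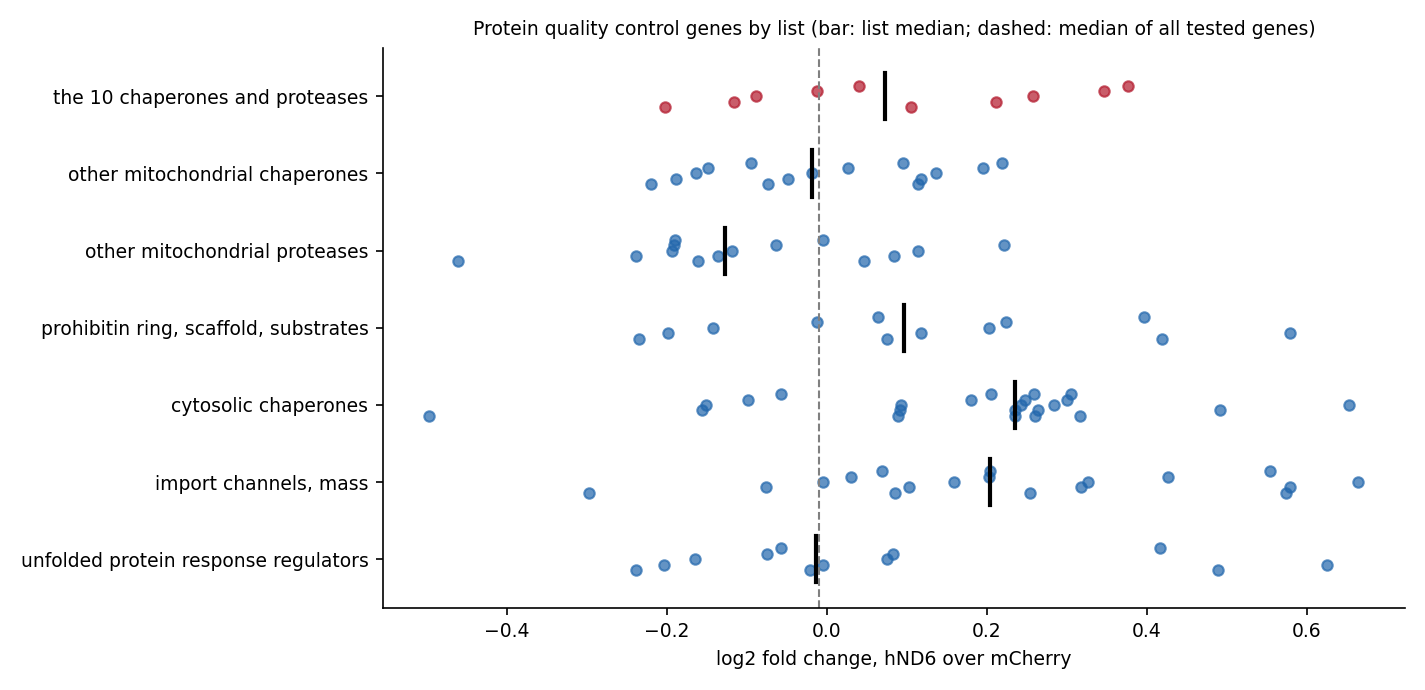
Log2 fold change of hND6 over mCherry for each tested gene (points) of the 10 chaperones and proteases and of 6 further lists, with list medians as black bars and the median of all tested genes, -0.01, as a dashed line. The 10 genes spread from -0.20 to 0.38 around a median of 0.07, below the medians of 0.24 for cytosolic chaperones and 0.20 for import genes. With the gene span trend removed, which is not drawn, these medians were 0.03, 0.15 and 0.15 in the same order.

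Across the 6 libraries the 10 genes did not move as one. Clpp and Hspd1 were the most alike pair (Pearson's r of their log2 values 0.97), and Clpx and Phb2 the most opposed (-0.86), as a description over 6 libraries that differ in group, depth and neuron content. The mean of the 10, each centred on its own average, was highest in hND6 3 (0.12 on the log2 scale) and lowest in mCherry 1 (-0.07). Of 9279 other protein-coding genes averaging 5 FPKM or more, Ltv1, Pomgnt1 and Cnpy4 followed this mean most closely, at r = 0.99 each over the 6 libraries. Values this high can arise when the best of so many genes are picked over so few libraries, so they do not show shared regulation.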

How the data were processed

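Ribosomal-RNA-depleted total RNA of 3 hND6 and 3 mCherry optic nerve libraries was sequenced. The deposited values are FPKM, made by the authors per exon length and library size; per the submitters' processing notes CASAVA 1.4, Trim Galore, STAR and HTSeq were used on mm10 (GRCm38), with roles not given in the sources used here. Exon length and gene span came from the deposited gene table. FPKM times exon length gave whole reads for at least 99.99% of values above 0 (within 0.1 read), and reads assigned to genes ran from 20253637 to 34758873 per library. Genes averaging 0.5 FPKM or more, 16157 in all, were tested on log2(FPKM + 0.5) with limma 3.58.1 in R 4.3.3 (intensity trend, two-sided), hND6 against mCherry, with Benjamini-Hochberg adjustment over all of them at 0.05. The scale understates changes of low genes. Of the other lists, the 2 genes of smallest p in each direction are named. Ratios were tested by exact two-sided permutation over 20 splits. Copies were sought with blastn 2.17.0 on GENCODE M21. The fit was also run on simulated counts with planted changes larger than those of the 10 genes. That simulation held no transcripts of other tissue and no trend with gene span. It therefore does not show whether changes of the size seen here would be found. The 10 genes, the lists and the alternatives were chosen with earlier results of these data known. No gene list was tested as a set.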

Additional observations from a re-analysis of the deposited data

How the results depend on the processing

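None of the 10 genes passed under any of the 21 alternatives, and Hspd1, Hspe1, Clpp, Phb2, Clpx, Yme1l1 and Oma1 kept their direction in each. The alternatives draw on the same libraries, so a kept direction is no separate support. With the gene span trend removed, Hspe1 (0.102 ± 0.163), Phb2 (0.022 ± 0.081), Yme1l1 (-0.026 ± 0.085) and Oma1 (-0.033 ± 0.15) lay within their SE of 0. With 1 library left out, ranges were 0.20 to 0.29 for Hspd1, 0.19 to 0.52 for Hspe1, 0.25 to 0.47 for Clpp, 0.17 to 0.24 for Phb2, -0.30 to -0.14 for Clpx, -0.12 to -0.04 for Yme1l1 and -0.27 to -0.04 for Oma1. Signs turned for genes near 0: on the TPM scale for Hspa9 (-0.039) and Lonp1 (-0.101), and with the gene span trend removed for Trap1 (0.038) and Lonp1 (-0.02). With 1 library left out, Hspa9 ran from 0.07 to 0.15, Trap1 from -0.077 to 0.036 and Lonp1 from -0.011 to 0.073. Without mCherry 3 and hND6 2 Trap1 was at 0.018, and without mCherry 3 and hND6 1 Lonp1 was at 0.081. The median of the 10 ran from 0.04 to 0.11 with 1 library left out, and was -0.07 on the TPM scale, where the log2 difference of their sum was -0.036 in place of 0.11 (0.07 to 0.15 with 1 library left out).

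The count of genes called higher over all genes, 7, was 1 with no filter on low values, 0 with voom on recovered reads, 0 to 116 with 1 library left out, 1 without mCherry 3 and hND6 1, and 0 without mCherry 3 and hND6 2. Called lower, 0 in the reported fit (978 at an unadjusted p under 0.05, and 0 with voom), were 1 gene with the gene span trend removed and 0 to 15 with 1 library left out. With the replicate number as a block 0 genes were called, and the SE of Hspe1 was 0.095 in place of 0.21 (limma adjusted p = 0.423). Same-numbered hND6 and mCherry libraries correlated at -0.42, 0.36 and -0.20 in their deviations from group means. The highest value, 0.555, was between hND6 1 and mCherry 3, the libraries with the most neuron transcripts. With 3 libraries a group, these correlations cannot show whether the numbers are pairs, and the reported fit used no pairs.

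The Clpp/Clpx difference in log2 ratio ran from 0.44 to 0.80 with 1 library left out. That of Hspe1/Hspd1 ran from -0.047 to 0.234, and was 0.36 without mCherry 3 and hND6 1. That of Oma1/Yme1l1 ran from -0.154 to 0.058, and was -0.26 without mCherry 3 and hND6 2. That of Phb2/Phb ran from -0.17 to 0.22, and was -0.23 without mCherry 3 and hND6 1 and -0.12 without mCherry 3 and hND6 2. The cause of these shifts was not tested.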
